A study of Drosophila melanogaster with 17 samples.

Results

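The genes described here are the cytosolic glutathione S-transferases (GSTs) and the UDP-glycosyltransferases (UGTs) of the Drosophila brain. They were chosen by name, with earlier results of these data known. A gene was taken when its symbol in the deposited count table begins with Gst, a class letter and a digit, or with Ugt and a digit, and when at least 1 library held a read of it. This gave 52 genes, 35 GSTs and 17 UGTs, of the 16163 genes with a non-zero count. Whole brains were taken at 10 days of age, and nSyb-Gal4, a driver active in all neurons, either had no transgene to act on (control) or expressed human tyrosyl-tRNA synthetase (TyrRS). TyrRS charges tRNA with tyrosine, and its E196K substitution causes Charcot-Marie-Tooth neuropathy. The 4 transgenic genotypes were TyrRS-WT, TyrRS-E196K, and the same proteins with a disrupted nuclear localization signal, TyrRS-WTΔNLS and TyrRS-E196KΔNLS, for which the sample labels write NLS. There were 3 libraries each of control, TyrRS-WT and TyrRS-WTΔNLS and 4 each of TyrRS-E196K and TyrRS-E196KΔNLS. The methods give 2 transgene copies in TyrRS-WT and in TyrRS-WTΔNLS, 1 in TyrRS-E196K and 3 in TyrRS-E196KΔNLS. The study describes the transgenes as similarly expressed, apart from a somewhat lower level of TyrRS-WTΔNLS. The effect of the kind of protein therefore cannot be told apart from that of its copy number or, between TyrRS-WT and TyrRS-WTΔNLS, of its amount. The methods describe transgenic lines made for each construct, so differences between lines cannot be told apart from it either.

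GSTs join the tripeptide glutathione to reactive compounds, among them insecticides and the aldehydes that form when membrane lipids are oxidized. The delta and epsilon classes are particular to arthropods and have expanded in clusters of tandem copies, whereas the sigma, omega, theta and zeta classes have relatives in mammals. UGTs sit in the membrane of the endoplasmic reticulum and attach a sugar to lipophilic molecules so that they can be excreted. The mammalian enzymes use mostly UDP-glucuronic acid, hence the name glucuronosyl transferase, while those of insects use mostly UDP-glucose. In the fly head, members of both families are known from the antennae and the fat body as well as from the brain.

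Libraries held between 29380481 and 56030758 counts on genes. Levels are given as CPM, counts per 1000000 counts on genes after TMM scaling of the library sizes. Transcripts of retina and fat body were present in the brain samples, as the mean CPM of the rhodopsin gene ninaE was between 4660 and 8940 and that of the yolk protein gene Yp1 between 4790 and 7560 in the 5 genotypes. In such bulk samples, fewer cells of a type and less RNA per cell cannot be told apart. The 4 TyrRS-E196KΔNLS libraries stood apart in the sums of 2 marker lists and in 1 heat shock gene. Their summed fat body markers were at 39700 to 53500 CPM against 14000 to 37500 in the other libraries. Their haemocyte markers were at 916 to 1050 against 370 to 792. Most of the fat body sum was Yp1, Yp2, Yp3 and Rfabg, at means of 7560, 15800, 14800 and 6370 CPM in TyrRS-E196KΔNLS. Lsp2 (12.5 against 3.56 CPM) and Lpin (327 against 303 CPM) were above the control mean there too. Fbp1 (0.647 against 1.06 CPM) and to (24.3 against 29.2 CPM) were below it. Hsp70Bb was at 154 to 207 CPM in them, at 2.36 to 2.96 CPM in control and at 37.9 to 108 CPM in the other genotypes, and none of the 4 other heat shock genes found was called against control in any genotype. TyrRS-E196K replicate 4 held roX1, an RNA of males, at 78.7 CPM, against 14.5 to 25.8 CPM in all other libraries. The study sequenced its libraries in 2 batches, and which library belonged to which was not given in the sources used here. Nothing in the labels says that libraries of a genotype came from separate groups of flies, so p-values measure the spread between these libraries, which may be partly technical.

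The GST genes lay mostly in tandem. The delta cluster held 11 genes on chromosome 3R, from 12364776 to 12385624 in BDGP6, and the epsilon cluster held 10 genes on 2R, from 18396638 to 18409835. The 4 other epsilon genes, GstE11 to GstE14, lay singly on 2R. Smaller groups were GstO1 to GstO3 on 3L, GstT1 with GstT2 on 2R, and GstZ1 with GstZ2 on 3R. Of the 17 UGT genes, 9 formed a cluster on 3R, from 11151026 to 11177910, that held Ugt35a, Ugt35b and all Ugt86D genes but Ugt86Dd. The latter lay on the same arm at 11126597 to 11128328, apart from this cluster and more than 10 kb from its nearest gene.

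Expression was spread over many GSTs, whereas 1 UGT stood far above the others. Per kb of exon, GstD1, a delta enzyme widely used as a reporter of oxidative stress, made up 29.5% of the summed GST level, followed by GstE12 with 14.6% and GstD9 with 8.58%. Among the 17 UGTs, Ugt35b made up 73.9% of the summed level per kb, and Ugt36Bc came next with 7.09%. The table lists 17 further UGT genes under other symbols, which are no members here. Over all 34 the share of Ugt35b was 47.4%, followed by CG4302 (12.2%) and CG15661 (9.63%), and that of Ugt36Bc was 4.55%. A mean of at least 1 CPM was reached by 27 of the 35 GSTs and by 8 of the 17 UGTs. The 8 GSTs under this level had means of 0.0666 to 0.995 CPM and the 9 UGTs means of 0.0416 to 0.572 CPM, so that their values rest on fewer reads. Summed over each family, the GSTs were at 896 to 1110 CPM in control and at 809 to 1100 CPM in the transgenic genotypes. The UGTs were at 332 to 403 CPM in control and at 255 to 591 CPM in the others, with the highest value in TyrRS-E196KΔNLS.

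**Figure D1:**
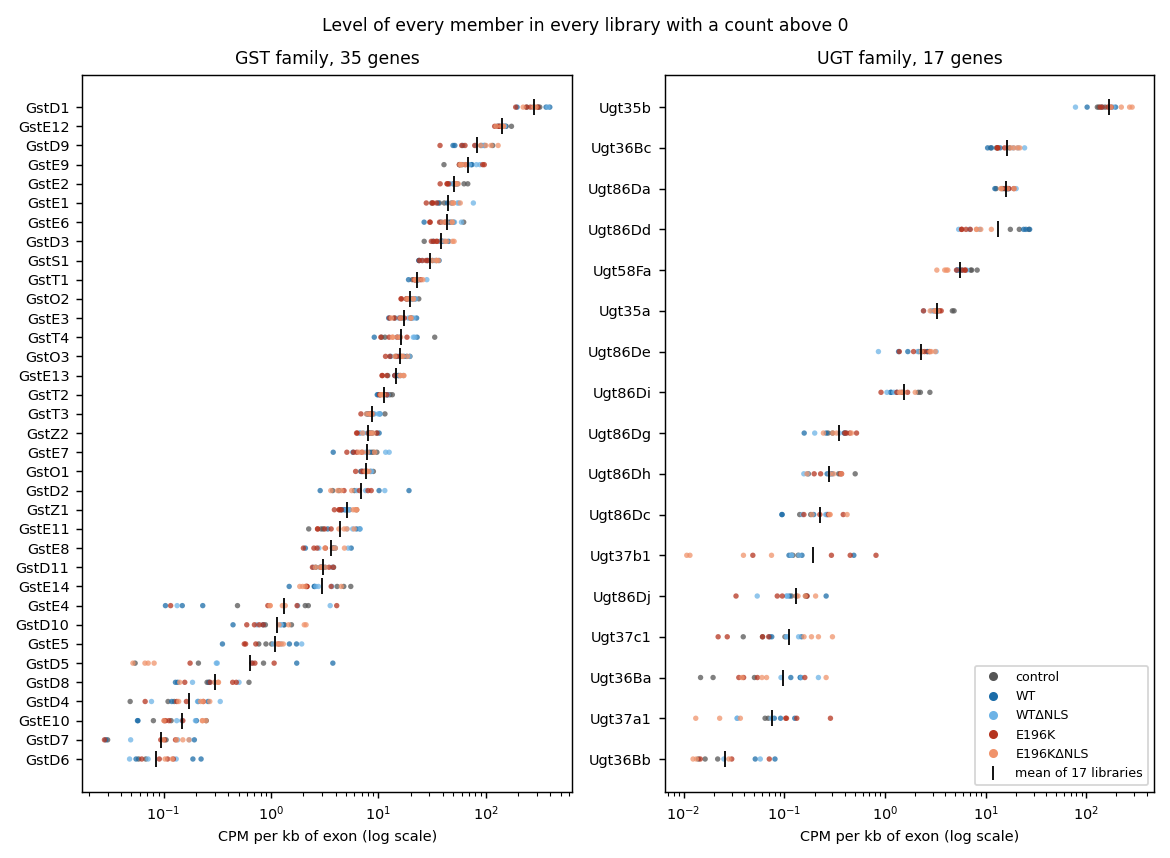
CPM per kb of exon (log axis) of the 35 GST and 17 UGT genes, 1 point per library coloured by genotype and a bar at the mean of all 17 libraries; libraries without a read of a gene are not drawn. GstD1 is the highest GST, Ugt35b stands alone at the top of the 17 UGTs drawn, and the points of Ugt86Dd fall into 2 groups.

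Each gene was tested with edgeR's quasi-likelihood test in 1 fit of all 17 libraries, with p-values adjusted over all 16163 genes, and called when the adjusted p was under 0.05. Among the 35 GSTs, 2 were called in TyrRS-WT against control (2.33% of all genes tested), 2 in TyrRS-WTΔNLS (3.76% of all genes), 3 in TyrRS-E196K (6.42%) and 2 in TyrRS-E196KΔNLS (4.78%). These comparisons share the same 3 control libraries. The shares of the GSTs called were 5.71% to 8.57%, and in TyrRS-E196K and TyrRS-E196KΔNLS they lay near the share of all genes. All 3 calls in TyrRS-E196K were lower, where 3.38% of all genes were called lower, and the median log2 fold change of the 35 GSTs there was -0.21, against 0 for all genes. Between TyrRS-E196K and TyrRS-E196KΔNLS, 8 GSTs, 22.9% of the family, were called and all 8 were lower in TyrRS-E196K, against 5.7% of all genes called and 3.19% called lower. The median of the 35 GSTs was again -0.21. Without TyrRS-E196K replicate 4 this count was 6, and it fell to 4 without TyrRS-E196K replicate 3 or without TyrRS-E196KΔNLS replicate 2.

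No GST was called in the 3 other comparisons by edgeR. TyrRS-E196K against TyrRS-WT, where edgeR called 1.55% of all genes, had 5 GSTs with an unadjusted p under 0.05. DESeq2 called 3 GSTs there and 448 genes in all. TyrRS-WT against TyrRS-WTΔNLS (edgeR 1.08% of all genes) had 6, and DESeq2 called 4 GSTs and 328 genes in all. TyrRS-E196KΔNLS against TyrRS-WTΔNLS (edgeR 1.32%) had 4, and DESeq2 called 0 GSTs and 457 genes in all. The share of all genes with an unadjusted p under 0.05 was not counted. Leaving out 1 library gave at most 1 call in the first comparison (without control replicate 2 or TyrRS-WT replicate 3), at most 1 in the second (without TyrRS-WT replicate 1 or TyrRS-E196K replicate 3) and 0 in the third.

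GstE1, an epsilon enzyme that conjugates the lipid aldehyde 4-hydroxynonenal, was higher than control in both genotypes without the nuclear signal. It was at 26.2, 30.9 and 34.3 CPM in control, 46.8, 45.5 and 64.0 CPM in TyrRS-WTΔNLS, and 41.7, 48.3, 41.8 and 39.7 CPM in TyrRS-E196KΔNLS. Neither group overlapped control. In TyrRS-E196K it was at 23.3, 27.0, 29.1 and 26.4 CPM and in TyrRS-WT at 36.7, 40.3 and 30.0 CPM, both overlapping control. The log2 fold change against control was 0.77 in TyrRS-WTΔNLS (SE 0.14, edgeR adjusted p = 0.00614) and 0.49 in TyrRS-E196KΔNLS (SE 0.13, edgeR adjusted p = 0.0466). The second call held in only 6 of the 17 fits without 1 library, and was lost without any 1 of the controls, of the TyrRS-E196KΔNLS libraries, of TyrRS-E196K replicates 2, 3 and 4 or without TyrRS-WT replicate 1 (adjusted p from 0.0514 to 0.185). Between TyrRS-E196K and TyrRS-E196KΔNLS the difference was -0.70 (SE 0.12, edgeR adjusted p = 0.00255), and it was called in all 23 alternative fits. Between TyrRS-WT and TyrRS-WTΔNLS GstE1 was not called by edgeR, although the libraries did not overlap. GstE1 overlaps its neighbour GstE10 by 127 bases on opposite strands, which unstranded libraries cannot separate, and GstE10 was at a mean of 0.168 CPM.

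GstE11, another epsilon gene, lies apart from the cluster on 2R (18503608 to 18505025) and was raised in the same ΔNLS genotypes and in TyrRS-WT. Control libraries held it at 2.12, 2.89 and 2.77 CPM. It was at 6.34, 5.92 and 3.19 CPM in TyrRS-WT, at 4.83, 5.44 and 6.39 CPM in TyrRS-WTΔNLS and at 4.81, 4.54, 4.05 and 5.62 CPM in TyrRS-E196KΔNLS, with no library of the 3 groups as low as a control. The 4 TyrRS-E196K libraries, at 2.57, 3.43, 2.99 and 2.56 CPM, overlapped control. The log2 fold changes against control were 0.99 (SE 0.23, edgeR adjusted p = 0.0324), 1.09 (SE 0.23, adjusted p = 0.0134) and 0.87 (SE 0.21, adjusted p = 0.0271) in that order. The call in TyrRS-WTΔNLS was lost without control 1 alone (adjusted p = 0.068), that in TyrRS-WT without control 1 or 3 or TyrRS-WT 1 or 2 (0.0909 to 0.137), and that in TyrRS-E196KΔNLS without control 1 or 3 or its own replicate 1, 2 or 4 (0.0524 to 0.121). In TyrRS-E196K it was lower than in TyrRS-E196KΔNLS, with a log2 fold change of -0.72 (SE 0.19, edgeR adjusted p = 0.0406), a call made in 10 of the 17 fits without 1 library. The libraries whose loss ended it were TyrRS-WTΔNLS 2, TyrRS-E196K 1, 3 and 4 and TyrRS-E196KΔNLS 1, 2 and 4 (0.0535 to 0.108).

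GstD9, the third most abundant GST per kb and next to GstD1 on 3R, was lower than control in both genotypes that keep the nuclear signal. It was at 77.3, 71.5 and 91.7 CPM in control, 48.2, 40.7 and 39.1 CPM in TyrRS-WT and 62.3, 47.1, 29.6 and 50.6 CPM in TyrRS-E196K. All libraries of both genotypes lay below the lowest control. TyrRS-WTΔNLS, at 73.7, 76.2 and 63.4 CPM, and TyrRS-E196KΔNLS, at 79.3, 88.7, 70.5 and 103 CPM, overlapped control. The log2 fold change against control was -0.91 in TyrRS-WT (SE 0.20, edgeR adjusted p = 0.0276) and -0.76 in TyrRS-E196K (SE 0.19, adjusted p = 0.0249). TyrRS-E196K was lower than TyrRS-E196KΔNLS, with a log2 fold change of -0.85 (SE 0.17, edgeR adjusted p = 0.00756), called in all 23 alternative fits. Between TyrRS-WT and TyrRS-WTΔNLS GstD9 was not called by edgeR, although the libraries did not overlap. The call in TyrRS-WT was lost without control 1 or 3 or TyrRS-WT 2 or 3 (0.0678 to 0.118), and that in TyrRS-E196K without control 3 or TyrRS-E196K 2 (0.0574 to 0.133).

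In TyrRS-E196K, 2 further GSTs were lower than control. GstE2, an epsilon gene beside GstE1, was at 38.9, 40.3, 33.6 and 39.3 CPM against 56.1, 44.4 and 60.8 CPM in control, a log2 fold change of -0.50 (SE 0.09, edgeR adjusted p = 0.00365) that was called in all 17 fits without 1 library. GstO2, an omega enzyme, was at 28.7, 28.4, 32.4 and 31.9 CPM against 35.8, 38.5 and 41.6 CPM, a log2 fold change of -0.35 (SE 0.08, edgeR adjusted p = 0.016). The libraries of TyrRS-E196K and control did not overlap for either gene. The call of GstO2 was lost without control 3 or TyrRS-E196K 2 (0.0523 to 0.104). GstO2 overlaps se, the omega gene of eye pigment synthesis, by 61 bases on the other strand, where reads cannot be assigned.

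Of the 8 GSTs lower in TyrRS-E196K than in TyrRS-E196KΔNLS, GstE13 and GstZ1 were called in all 23 alternative fits, as GstE1 and GstD9 were. GstZ1 belongs to the zeta class, whose mammalian member isomerizes maleylacetoacetate in the breakdown of tyrosine. It was at 3.56, 4.14, 3.93 and 3.97 CPM in TyrRS-E196K and at 5.75, 5.55, 5.76 and 5.31 CPM in TyrRS-E196KΔNLS, a log2 fold change of -0.52 (SE 0.10, edgeR adjusted p = 0.00535). GstE13 was at 15.1, 11.5, 11.6 and 12.8 CPM against 18.4, 17.1, 17 and 18.3 CPM, a change of -0.47 (SE 0.09, edgeR adjusted p = 0.00601). Control libraries were at 4.1, 5.73 and 4.91 CPM for GstZ1 and 13, 16.3 and 15.7 CPM for GstE13. They overlapped TyrRS-E196K for both genes and TyrRS-E196KΔNLS for GstZ1, and neither gene was called against control in any genotype. GstE2 was also lower, at 47.9, 49.5, 46.8 and 47.0 CPM in TyrRS-E196KΔNLS (log2 fold change -0.33, SE 0.08, edgeR adjusted p = 0.0269), a call lost without TyrRS-E196K 3 or TyrRS-E196KΔNLS 1, 2 or 4 (0.0509 to 0.0937). The remaining pair, named after their values were seen, was GstD3, with -0.47 (SE 0.12, edgeR adjusted p = 0.0299), and GstD10, with -1.22 (SE 0.31, adjusted p = 0.0282) at a mean of 0.995 CPM. Each was called in 12 of 17 fits without 1 library, GstD3 not without TyrRS-E196K 1, 2 or 3 or TyrRS-E196KΔNLS 2 or 4 (0.0589 to 0.0923) and GstD10 not without TyrRS-E196K 2, 3 or 4 or TyrRS-E196KΔNLS 2 or 3 (0.0589 to 0.0915).

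Some markers of other cells moved with the same comparison, TyrRS-E196K against TyrRS-E196KΔNLS, in which 3.19% of all genes were called lower. Of the 8 fat body markers found (9 listed), 1 was called lower in TyrRS-E196K than in TyrRS-E196KΔNLS, the lipoprotein gene Rfabg, and of the 4 haemocyte markers 2 were, Hml and NimC1. The summed fat body level was 14000 to 34900 CPM in TyrRS-E196K and 39700 to 53500 CPM in TyrRS-E196KΔNLS, the haemocyte level 370 to 701 CPM and 916 to 1050 CPM. Of the 7 glial markers, 1 was called lower too, the astrocyte gene alrm, at a mean of 227 against 327 CPM, while the summed glial level was 3120 to 3630 against 3560 to 4120 CPM. In TyrRS-E196K against control, where 6.42% of all genes were called, alrm and wrapper, 2 of the 7 glial markers, were called lower. The means of repo (156 CPM) and moody (95.5 CPM) in TyrRS-E196K were above those of TyrRS-E196KΔNLS (137 and 84.7 CPM) and control (147 and 92.9 CPM). Those of Eaat1, nrv2 and Gs2 were below both, and none of these was called. Retinal markers summed to 8260 to 10400 CPM in TyrRS-WT and to 14800 to 19100 CPM in control. None of these fat body, haemocyte or glial markers was at 0 in any library. Their part in the GST and UGT results was not tested.

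**Figure D2:**
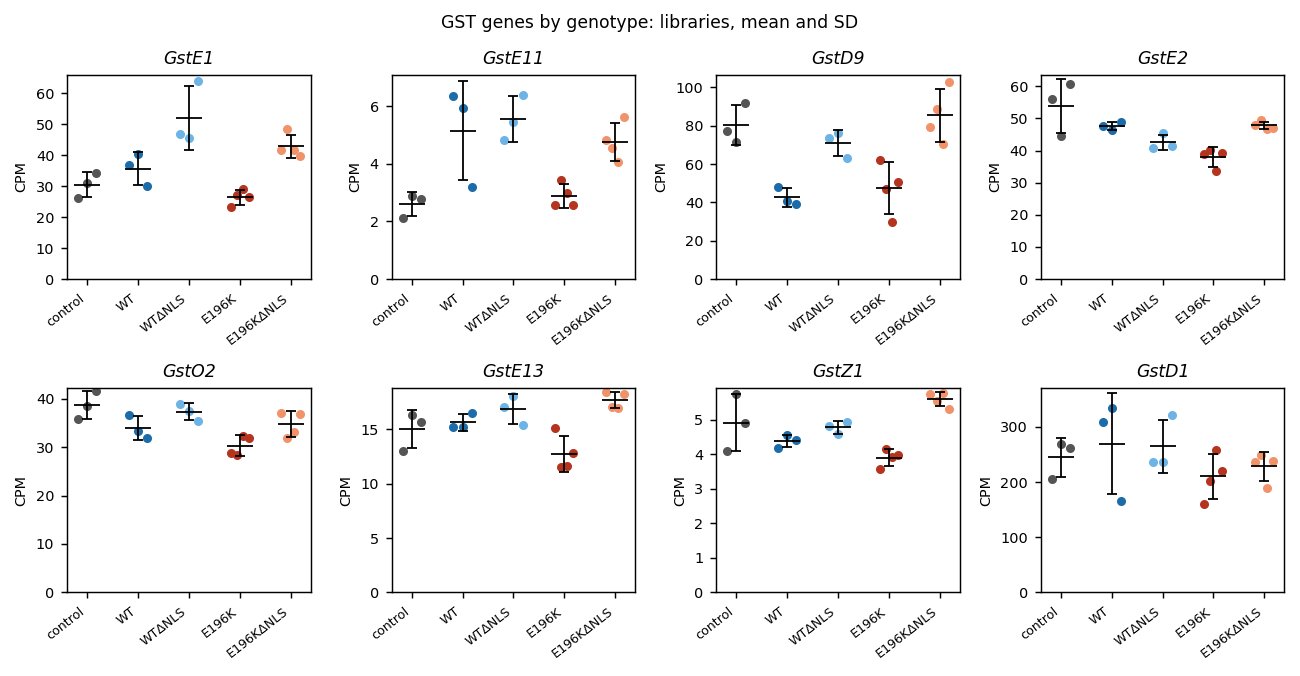
CPM (linear axes from 0) of 8 GST genes by genotype, with 1 point per library and the mean with SD as a black bar. GstE1 is higher in both ΔNLS genotypes than in control, GstD9 is lower in TyrRS-WT and TyrRS-E196K, and GstD1 overlaps across all 5.

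GstD1 and GstE12, the highest GSTs per kb, showed no called difference, and neither did GstS1, GstO1 and GstT1. GstD9, the third per kb, was called as given above. GstD1 was at 205, 270 and 261 CPM in control and between 161 and 335 CPM over the other genotypes. The TyrRS-WT libraries spanned nearly all of this range, at 309, 335 and 166 CPM, and its log2 fold changes against control were between -0.22 (SE 0.21) and 0.14 (SE 0.22). GstE12 was at 182, 218 and 244 CPM in control and at 170 to 214 CPM elsewhere. The sigma enzyme GstS1, which also conjugates 4-hydroxynonenal, was at 73.1, 54.6 and 79.3 CPM in control and at 54.3 to 84 CPM elsewhere. The log2 fold changes over all comparisons were between -0.14 and 0.05 for the omega gene GstO1 and between -0.20 and 0.17 for the theta gene GstT1. The smallest adjusted p of these 5 genes in any edgeR test was 0.124, for GstS1 between TyrRS-E196K and TyrRS-E196KΔNLS (log2 fold change -0.37, SE 0.13), where the libraries at 63.4, 65.9, 55.0 and 58.7 CPM lay below those at 80.3, 82.8, 72.4 and 78.6 CPM.

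Of the 17 UGTs, 2 were called in TyrRS-WT against control, 3 in TyrRS-WTΔNLS, 2 in TyrRS-E196K and 4 in TyrRS-E196KΔNLS, shares of 11.8%, 17.6%, 11.8% and 23.5% against 2.33%, 3.76%, 6.42% and 4.78% of all genes. Between TyrRS-E196K and TyrRS-E196KΔNLS 6 were called, 35.3% against 5.7%, 3 in each direction. Among all 5 genotypes 7 UGTs (41.2%) and 7 GSTs (20%) were called, against 9.88% of all genes, and the difference between the families was not tested. The called UGTs went both ways in TyrRS-E196KΔNLS against control (2 higher, 2 lower) and in TyrRS-WT against TyrRS-WTΔNLS (1 higher, 1 lower), while both calls in TyrRS-WT and both in TyrRS-E196K against control were lower. The counts moved with single libraries. That of TyrRS-WT was 0 without control 3, TyrRS-WT 2 or TyrRS-WT 3, that of TyrRS-WTΔNLS was 1 without its unnumbered library, that of TyrRS-E196K 1 without control 3, that of TyrRS-E196KΔNLS 2 without its replicate 2 or 3, and that between both E196K genotypes 3 without TyrRS-E196K 2.

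**Figure D3:**
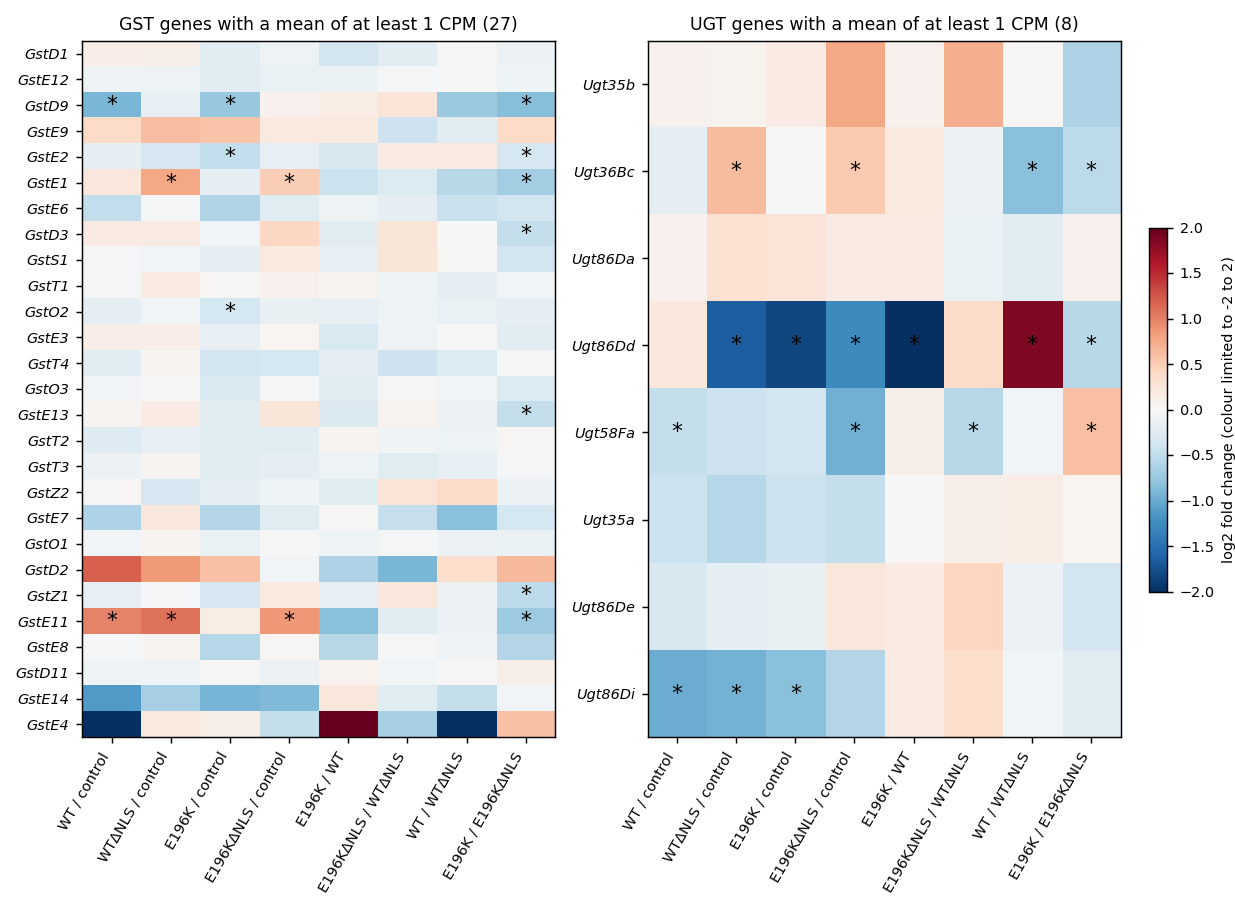
Log2 fold changes of the 27 GST and 8 UGT genes whose mean reached 1 CPM (rows, ordered by level per kb) in 8 comparisons (columns, first genotype over second), with an asterisk where the edgeR adjusted p was under 0.05. In the last column of the GST panel all asterisks are on blue cells, and the row of Ugt86Dd is dark in every comparison that pairs control or TyrRS-WT with another genotype but not in TyrRS-WT against control; colour is limited to -2 to 2.

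Ugt86Dd (FBgn0040256, now named Ugt35C1), in which natural variants alter the resistance of larvae to nicotine, showed the largest change of any UGT whose mean reached 1 CPM. It was at 36.2, 29.5 and 45.0 CPM in control and at 45.9, 42.1 and 40.0 CPM in TyrRS-WT. In TyrRS-WTΔNLS it was at 9.04, 11.6 and 14.6 CPM, in TyrRS-E196K at 9.69, 11.8, 9.67 and 10.7 CPM, and in TyrRS-E196KΔNLS at 19.1, 13.6, 13.6 and 15 CPM. The libraries thus fell into 2 ranges, 29.5 to 45.9 CPM in control and TyrRS-WT and 9.04 to 19.1 CPM in the 3 other genotypes, with none between. Against control the log2 fold change was -1.82 in TyrRS-E196K (SE 0.17, edgeR adjusted p = 7.05e-06), -1.65 in TyrRS-WTΔNLS (SE 0.18, adjusted p = 6.02e-05) and -1.27 in TyrRS-E196KΔNLS (SE 0.16, adjusted p = 0.000161). In TyrRS-WT it was 0.21 (SE 0.18, adjusted p = 0.686). TyrRS-WT and TyrRS-WTΔNLS differed by 1.86 (SE 0.18, edgeR adjusted p = 2.58e-05), and TyrRS-E196K differed from TyrRS-WT by -2.03 (SE 0.17, adjusted p = 3.16e-06). These 5 calls were made in all 23 alternative fits. The step from TyrRS-E196K to TyrRS-E196KΔNLS was smaller, -0.55 (SE 0.15, edgeR adjusted p = 0.0466), and held in 5 of 17 fits without 1 library. It was lost without control 1, any TyrRS-WT, TyrRS-WTΔNLS 2, any TyrRS-E196K or TyrRS-E196KΔNLS 1, 2 or 4 (0.053 to 0.151). Between both ΔNLS genotypes the value of 0.38 (SE 0.17, edgeR adjusted p = 0.377) was not called and the libraries overlapped.

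Ugt86Dd was thus lower in TyrRS-WTΔNLS than in TyrRS-WT, and the step between TyrRS-E196KΔNLS and TyrRS-E196K went the opposite way. The difference of these differences, the contrast of TyrRS-E196K with TyrRS-WT minus the contrast of both ΔNLS genotypes, was -2.41 on the log2 scale (SE 0.24, edgeR adjusted p = 3.21e-05 for the interaction, where 1.45% of all genes were called). None of the 7 other Ugt86D genes was called in TyrRS-E196K against TyrRS-WT or in TyrRS-WT against TyrRS-WTΔNLS. Of these, Ugt86Dc, Ugt86Dg, Ugt86Dh and Ugt86Dj had means of 0.229 to 0.572 CPM, where a change could be missed.

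Ugt58Fa (FBgn0040091, now Ugt317A1), the single member of its class on 2R, was lowest in TyrRS-E196KΔNLS. It was at 13.3, 13.6 and 15.4 CPM in control, 9.87, 9.84 and 10.8 CPM in TyrRS-WT, 12.2, 9.69 and 9.85 CPM in TyrRS-WTΔNLS, 11.7, 11, 9.6 and 11.7 CPM in TyrRS-E196K, and 7.87, 7.33, 6.12 and 7.63 CPM in TyrRS-E196KΔNLS. All 14 transgenic libraries lay below the lowest control, and the 4 TyrRS-E196KΔNLS libraries lay below all others. In that genotype the log2 fold change was -0.96 against control (SE 0.11, edgeR adjusted p = 4.36e-05), and TyrRS-E196K exceeded it by 0.60 (SE 0.10, adjusted p = 0.00177), both called in all 23 alternative fits. TyrRS-E196KΔNLS was also below TyrRS-WTΔNLS, with -0.55 (SE 0.11, edgeR adjusted p = 0.0185), not called without TyrRS-WTΔNLS 1 or TyrRS-E196KΔNLS 2 (0.0503 to 0.104). In TyrRS-WT against control the change of -0.48 (SE 0.12, adjusted p = 0.0461) was called in 5 of 17 fits without 1 library. It was lost without any control, any TyrRS-WT, TyrRS-WTΔNLS 2 or the unnumbered one, TyrRS-E196K 2 or 4, or TyrRS-E196KΔNLS 2 or 4 (0.0511 to 0.186).

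Ugt36Bc (FBgn0040260, now Ugt37D1), the last of 3 tandem genes on 2L and the only one of them with a mean above 1 CPM, was higher in both ΔNLS genotypes. It was at 25.1, 22 and 33.8 CPM in control, 27.3, 22.4 and 20.5 CPM in TyrRS-WT and 25.7, 25.6, 26.0 and 30.3 CPM in TyrRS-E196K. In TyrRS-WTΔNLS it was at 41.3, 36.8 and 47.8 CPM and in TyrRS-E196KΔNLS at 34.7, 40.5, 37.3 and 42.8 CPM. All 7 ΔNLS libraries were above all 10 others. The log2 fold changes against control were 0.64 (SE 0.15, edgeR adjusted p = 0.0259) and 0.53 (SE 0.14, adjusted p = 0.0419). TyrRS-WT was lower than TyrRS-WTΔNLS, with -0.84 (SE 0.15, edgeR adjusted p = 0.00781) and TyrRS-E196K lower than TyrRS-E196KΔNLS, with -0.53 (SE 0.13, adjusted p = 0.0219). Of these calls, that of TyrRS-WT against TyrRS-WTΔNLS was lost without TyrRS-WT 3 only (0.0593), that of TyrRS-WTΔNLS against control without control 1 or 2 or TyrRS-WTΔNLS 1 or the unnumbered one (0.0661 to 0.0993), and that between both E196K genotypes without TyrRS-E196K 1, 2 or 3 or TyrRS-E196KΔNLS 2 or 4 (0.0562 to 0.0651). That of TyrRS-E196KΔNLS against control held in 7 of 17 such fits and was lost without control 1 or 2, TyrRS-WT 2, TyrRS-WTΔNLS 1, TyrRS-E196K 1, 2 or 3, or TyrRS-E196KΔNLS 2, 3 or 4 (0.0513 to 0.165).

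Ugt86Di (FBgn0040251, now Ugt302K1), at the end of the 3R cluster nearest to Ugt86Dd, was lower than control with every transgene. Control libraries were at 5.76, 5.49 and 7.16 CPM. TyrRS-WT was at 3.36, 2.96 and 2.91 CPM, TyrRS-WTΔNLS at 3.14, 3.73 and 2.68 CPM, TyrRS-E196K at 4.30, 3.81, 2.34 and 3.36 CPM and TyrRS-E196KΔNLS at 3.94, 3.56, 3.65 and 5.12 CPM, all below the lowest control. The log2 fold changes of the first 3 were -1.0 (SE 0.21, edgeR adjusted p = 0.0194), -0.95 (SE 0.21, adjusted p = 0.0185) and -0.83 (SE 0.19, adjusted p = 0.0172), and TyrRS-E196KΔNLS was not called. These calls rest on the same 3 controls, and all 3 were lost without control 3 (0.0651 to 0.109 over the libraries that ended a call). The other libraries that ended one were TyrRS-WT 2 and 3 for TyrRS-WT, and TyrRS-WTΔNLS 1 and the unnumbered one for TyrRS-WTΔNLS.

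Ugt35b (now Ugt35B1), the highest UGT per kb, was at 216, 224 and 258 CPM in control and at 295, 479, 452 and 374 CPM in TyrRS-E196KΔNLS. These 2 groups did not overlap, but the log2 fold change of 0.78 (SE 0.26) had an edgeR adjusted p of 0.116 and was not called. The spread within other genotypes was wide, with 171, 239 and 328 CPM in TyrRS-WT and 289, 310 and 131 CPM in TyrRS-WTΔNLS, the last from the unnumbered library. TyrRS-E196K was at 231, 275, 242 and 297 CPM. The summed fat body markers of TyrRS-E196KΔNLS were above those of control as well, at 39700 to 53500 against 28900 to 36100 CPM, and their part in this value was not tested. Ugt86Da, at 24.7 to 40.2 CPM, and Ugt35a, at 4.31 to 8.68 CPM, were called in no comparison.

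The 3 Ugt37 genes were called although their means were under 1 CPM, and they are named here after their values were seen. They are not neighbours, lying on 2L and 2R. Ugt37b1 was at 0.0848, 1.42, 0.787 and 0.512 CPM in TyrRS-E196K and at 0.0684, 0.0187, 0.0201 and 0.130 CPM in TyrRS-E196KΔNLS, a log2 fold change of 3.54 (SE 0.75, edgeR adjusted p = 0.00944) in spite of an overlap. Ugt37a1 was at 0.170, 0.473, 0.173 and 0.219 CPM against 0 to 0.0602 CPM, called with an edgeR adjusted p of 0.0135 and lost without TyrRS-E196K 2 (0.0511). No TyrRS-E196KΔNLS library held more than 3 reads of it, and against a floor of 3 counts per library the mean of TyrRS-E196K was at least 3.78-fold higher. Ugt37c1 went the other way. It was at 0.106, 0.0473, 0.0384 and 0.122 CPM in TyrRS-E196K and at 0.274, 0.525, 0.381 and 0.325 CPM in TyrRS-E196KΔNLS, a log2 fold change of -2.25 (SE 0.40, edgeR adjusted p = 0.00255). Against control, at 0.177, 0.106 and 0.0682 CPM, TyrRS-E196KΔNLS was higher by 1.73 (SE 0.44, edgeR adjusted p = 0.0308), a call lost without control 2 or 3 or TyrRS-E196KΔNLS 2 or 3 (0.0616 to 0.174).

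**Figure D4:**
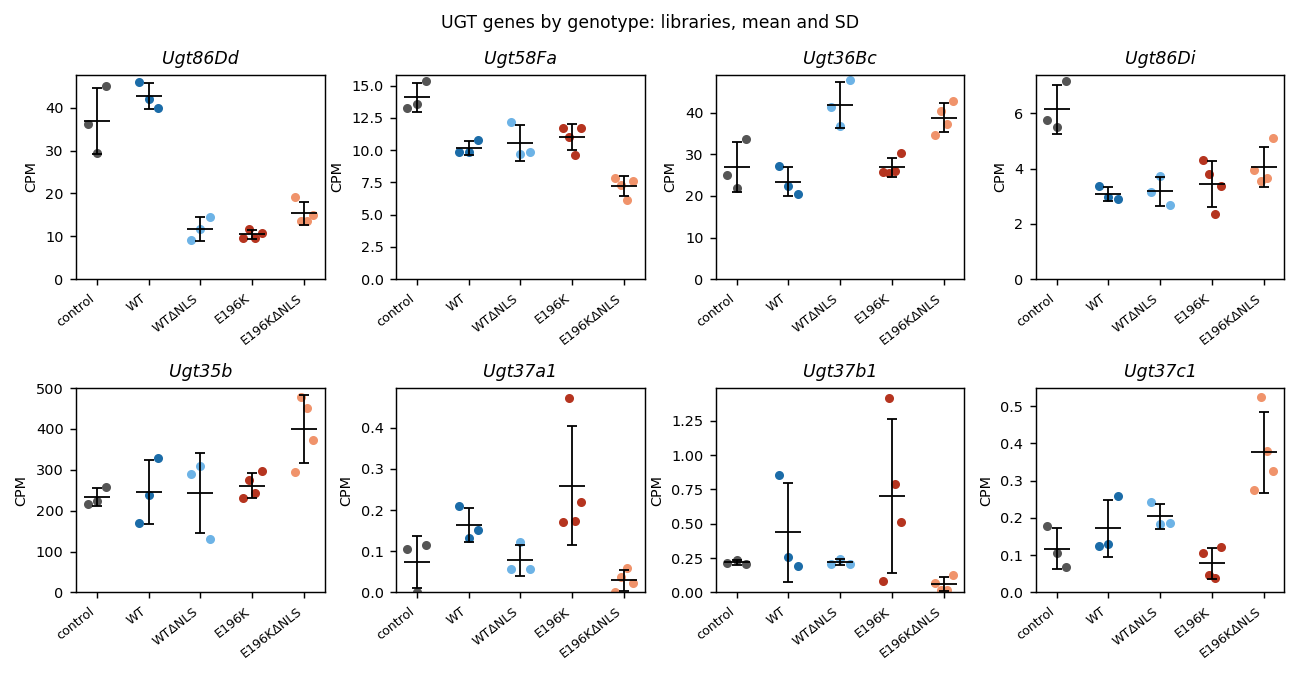
CPM (linear axes from 0) of 8 UGT genes by genotype, with 1 point per library and the mean with SD as a black bar. Ugt86Dd is at 29.5 to 45.9 CPM in control and TyrRS-WT and at 9.04 to 19.1 CPM in the 3 other genotypes, and Ugt36Bc is higher in both ΔNLS genotypes than in the rest.

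Several members varied strongly between libraries of 1 genotype. The median biological coefficient of variation of members whose mean reached 1 CPM was 0.161 for the GSTs and 0.172 for the UGTs, against 0.124 for the 9371 genes at or above this level. Some neighbours varied together. Only adjacent members were compared, so whether members that lie apart vary together as well was not tested. Over the 17 libraries, each expressed as its deviation from its genotype mean on the log2 scale, 15 pairs of adjacent members with means of at least 1 CPM were compared by correlation with permutations within genotypes. Ugt86De and Ugt35b, which lie side by side on 3R, had r = 0.87 (Benjamini-Hochberg adjusted permutation p = 0.0112) and rho = 0.84 (0.0136), and r = 0.76 without the 2 libraries farthest from the median. For GstE6 and GstE7 the values were r = 0.85 (adjusted permutation p = 0.0112), rho = 0.79 (0.0136) and r = 0.71 without the 2 farthest. For GstD1 and GstD2 they were r = 0.85 (adjusted permutation p = 0.0168), rho = 0.82 (0.0136) and r = 0.70. GstE7 with GstE8 and GstE8 with GstE9 passed for r (0.88 and 0.57, both with adjusted permutation p = 0.0214) and not for rho (0.67 and 0.57, both 0.09). The other 10 pairs did not pass. GstD9 and GstD1, at r = -0.21, and GstE1 and GstE2, at r = -0.15, are among them although each pair is adjacent and abundant. Adjacent members are close copies in sequence, and how reads that match more than 1 copy were treated was not given in the sources used here, so shared reads were not separated from shared expression.

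**Figure D5:**
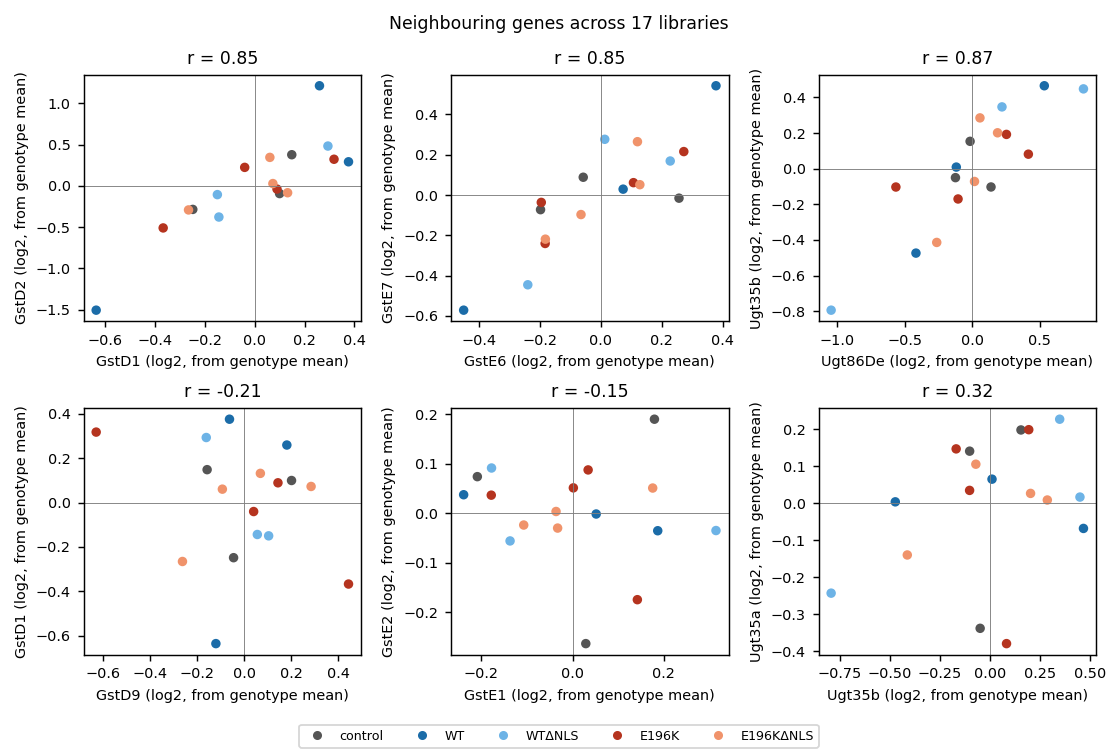
Deviation of the log2 level of each library from its genotype mean (axes in log2 units) for 6 pairs of neighbouring genes, coloured by genotype, with Pearson's r above each. The upper row holds pairs that vary together (r = 0.85 to 0.87) and the lower row pairs from the same clusters that do not (r = -0.21 to 0.32).

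Genes that act with these enzymes were looked at as well. Of 15 measured genes for glutathione supply and redox control, 1 was called against control in TyrRS-WT (2.33% of all genes) and none in the other genotypes. That gene was GS, glutathione synthetase, at 0.177 to 0.212 CPM in control and 0 to 0.0215 CPM in TyrRS-WT. Its call (edgeR adjusted p = 0.0449) was made in 9 of 22 alternative fits. Both levels were far below 1 CPM and rest on few reads, so the size of this change is poorly measured. Between TyrRS-E196K and TyrRS-E196KΔNLS, where 5.7% of all genes were called, 2 of the 15 were, both lower in TyrRS-E196K as the 8 GSTs were. They were Gclm, the modifier subunit of the enzyme that limits glutathione synthesis, with a log2 fold change of -0.58 (SE 0.14, edgeR adjusted p = 0.0219) called in 18 of 23 alternative fits, and the thioredoxin Trx-2 with -0.38 (SE 0.10, adjusted p = 0.0314) called in 16. The transcription factor cnc, which drives many GST genes, and its inhibitor Keap1 were called in no comparison. None of 6 genes for UDP-sugar supply was called in any comparison. Of 6 exporters, Mdr49 was higher in TyrRS-E196KΔNLS than in control by 0.39 (16 of 23 alternative fits) and Mdr50 was higher in TyrRS-E196K than in TyrRS-E196KΔNLS by 3.39 (18 of 23), both on the log2 scale. Of 9 P450 genes, 3 were called between TyrRS-E196K and TyrRS-E196KΔNLS (5.7% of all genes). Of these, Cyp6a8 and Cyp12d1-d, both higher in TyrRS-E196K, were called in all 23 alternative fits. Cyp6g2 was lower in TyrRS-E196K (log2 fold change -1.12, edgeR adjusted p = 0.0356), a call made in 15 of 23 alternative fits. Cyp6a8 was at means of 27.9 CPM in TyrRS-E196K, 0.454 CPM in TyrRS-E196KΔNLS and 9.17 CPM in control. Against control it was called lower in TyrRS-E196KΔNLS (log2 fold change -4.31, edgeR adjusted p = 0.00612), in all 23 alternative fits. It was not called in TyrRS-E196K against control. Cyp12d1-d was at 0.891 to 4.78 CPM in TyrRS-E196K and 1.1 to 5.82 CPM in TyrRS-WT, against 0 to 0.0227 CPM in control, 0 to 0.0217 CPM in TyrRS-E196KΔNLS and 0 in every TyrRS-WTΔNLS library. Its calls against control in TyrRS-WT (edgeR adjusted p = 0.000625) and TyrRS-E196K (adjusted p = 0.000764) were made in all 23 alternative fits too. Cyp12d1-p, a close copy with which reads may be shared, was called in no comparison.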

How the data were processed

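Poly(A) RNA was sequenced from unstranded libraries. The authors deposited counts per gene from HTSeq 0.6.1, not normalized, after trimming with Trimmomatic 0.32 and mapping to BDGP6 with TopHat2 2.0.12, and had left out 3 outlier libraries. Their normalized table was not used here. Of 17559 listed genes, 16163 were non-zero, and 6 lines that name no gene were left out. Columns were matched to samples by name, and 1 TyrRS-WTΔNLS column, whose number differs from its label, got no replicate number. Genes were tested with edgeR 4.0.16 (R 4.3.3) with TMM scaling, quasi-likelihood F tests and Benjamini-Hochberg adjustment, and an SE is the log2 fold change divided by the square root of F. The test was checked on simulated counts. Counts per kb use exon lengths of a BDGP6 annotation. The authors' batch factor could not be included. Alternatives were filterByExpr, DESeq2 size factors, DESeq2 1.42.0, the libraries of the compared genotypes alone, a replicate block, 1 surrogate variable (sva 3.50.0) and leaving out each library. Genes named with values are members with a mean of at least 1 CPM called against control or among the 5 genotypes, the 3 highest per kb in each family, and members listed by name. The members and gene lists were chosen with earlier results of these data known. At this depth the spread between libraries limits the precision, to which the counting of few reads adds under 1 CPM. No promoter was searched here. Correlations and figures were made with Python 3.11.15, numpy 2.4.6 and 100000 permutations on log2(CPM + 0.05). Replicates of a genotype differed beyond sampling noise in every pair (chi-square per gene 59.6 to 139).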

Additional observations from a re-analysis of the deposited data

Results flagged for a closer look

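GstT1 in TyrRS-E196K replicate 3, at 24.9 CPM, lay far above the 3 other libraries of its genotype, at 21.6 to 22 CPM, and Ugt36Bc in TyrRS-E196K replicate 4, at 30.3 CPM, far above the others, at 25.6 to 26.0 CPM. These were 2 of 38 groups of 4 libraries tested with Dixon's criterion, which marks about 5% by chance. For 2 UGTs the difference between TyrRS-E196K and TyrRS-WT was not the same with and without the nuclear signal, by the interaction test of edgeR. It was -2.41 on the log2 scale for Ugt86Dd (adjusted p = 3.21e-05) and 0.66 for Ugt58Fa (SE 0.16, edgeR adjusted p = 0.0462), a call made in 4 of 17 fits without 1 library. The libraries whose loss ended it were control 2, all of TyrRS-WT and TyrRS-WTΔNLS, TyrRS-E196K 1, 2 and 4 and TyrRS-E196KΔNLS 2, 3 and 4 (edgeR adjusted p from 0.0512 to 0.114). The call of Ugt86Dd was made in all 22 alternative fits, which for the interaction were chosen after seeing the data. No GST passed this test in edgeR, where 7 had an unadjusted p under 0.05, and DESeq2 called 2, GstE2 and GstE4. For the interaction, the share of all genes at that unadjusted p or called by DESeq2 was not counted.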

How the results depend on the processing

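Of 38 calls of a member in a comparison, 13 were made in all alternative fits and none changed sign. Of 57 changes of named members against control that were not called, 11 were called in at least 1 alternative. The counts of members called moved more than 1.5 times under the settings that follow, and the cause was not tested beyond the fewer libraries or genes of a fit. In the order TyrRS-WT, TyrRS-WTΔNLS, TyrRS-E196K and TyrRS-E196KΔNLS against control, leaving out 1 library gave 0 to 3, 1 to 3, 1 to 5 and 0 to 2 GSTs, and 0 to 2, 1 to 4, 1 to 3 and 2 to 5 UGTs. For TyrRS-E196K against TyrRS-WT it gave 0 to 1 GSTs, for TyrRS-E196K against TyrRS-E196KΔNLS 4 to 9 GSTs and 3 to 6 UGTs, for TyrRS-WT against TyrRS-WTΔNLS 0 to 1 GSTs and 1 to 2 UGTs, for TyrRS-E196KΔNLS against TyrRS-WTΔNLS 0 to 1 UGTs, and among the 5 genotypes 4 to 10 GSTs and 4 to 8 UGTs. DESeq2 called 4, 4, 7 and 3 GSTs against control in the order above, 3 in TyrRS-E196K against TyrRS-WT, 4 in TyrRS-WT against TyrRS-WTΔNLS and 14 among the 5 genotypes, and 5 UGTs in TyrRS-WTΔNLS. Of all genes it called 754, 1113, 1627 and 1119 against control in that order. With only the libraries of the compared genotypes 1, 1, 0 and 1 GSTs and 1, 1, 1 and 3 UGTs were called against control. In the same fits it was 1 GST and 1 UGT in TyrRS-WT against TyrRS-WTΔNLS, and 1 GST and 0 UGTs between both ΔNLS genotypes. With filterByExpr 5 GSTs were called in TyrRS-E196K, and with 1 surrogate variable 1 GST in TyrRS-E196KΔNLS and 1 UGT in TyrRS-WT. Calls over all genes were not counted with filterByExpr, with 1 surrogate variable, with only the compared genotypes or with 1 library left out. Nor were they counted among the 5 genotypes for DESeq2 or the replicate block. Changes in the counts of members were thus not separated from changes in all genes there.

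With the replicate number as a block 1 GST each was called against control in TyrRS-WT, TyrRS-WTΔNLS and TyrRS-E196KΔNLS and 3 among the 5 genotypes. Of all genes, this fit called 311, 308 and 569 against control in the same order. In the block fit 5 GSTs were called between both E196K genotypes. There 1 UGT each was called in TyrRS-WT and in TyrRS-WTΔNLS against control and in TyrRS-WT against TyrRS-WTΔNLS, and 0 between both ΔNLS genotypes. Of all genes it called 858 between both E196K genotypes, 104 in TyrRS-WT against TyrRS-WTΔNLS and 79 between both ΔNLS genotypes. Same-numbered libraries of different genotypes showed no joint deviation (correlations from -0.56 to 0.49 over 27 pairs, mean -0.01). The labels do not say that a number marks a shared batch or preparation. These correlations therefore cannot tell whether libraries shared one. The unnumbered TyrRS-WTΔNLS library formed a block of its own, so it added nothing to the comparisons of that fit.

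The spread over 3 or 4 libraries a group limits all members, and the 17 with means under 1 CPM rest on fewer reads as well.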

Other observations

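The UGT family is larger than the symbols in the count table show. A current annotation of the same assembly gives Ugt names to 17 further genes that the table lists under CG symbols or other names, and to 0 further GSTs. Of the 17, 9 had a mean of at least 1 CPM and 3 were called among the 5 genotypes, where 9.88% of all genes were called. CG17322 (now Ugt36E1), at a mean of 16.3 CPM, had a log2 fold change of -1.71 in TyrRS-E196KΔNLS and 0.13 in TyrRS-E196K against control (edgeR adjusted p = 3.99e-07 for any difference). CG15661 (now Ugt49C1), at 65.3 CPM, had 0.56 and -0.19 (edgeR adjusted p = 0.000467). CG17324 (now Ugt36F1), at 0.283 CPM, had 2.15 and -0.30 (edgeR adjusted p = 0.00493).

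Some members, picked after their values were seen, differed widely between libraries of 1 genotype. GstE4 was at 0.0974 to 3.44 CPM in TyrRS-E196K, and its coefficient of variation reached 99.5% within a genotype. GstD5 was at 3.17, 1.46 and 0 CPM in TyrRS-WT and under 0.07 CPM in all TyrRS-E196KΔNLS libraries. GstD2 was at 14.2, 7.47 and 2.11 CPM in TyrRS-WT, where GstD1 was at 309, 335 and 166 CPM, lowest in the same library. GstT4 was at 41 CPM in control replicate 2 and at 13.1 and 14.1 CPM in the other controls. None of these 4 genes was called in any comparison.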
